A study of Mus musculus with 72 samples.

Results

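The genes described here are 10 protein-coding genes of mouse epidermis whose mean level differed between rescued and wild-type animals: Nsg1, Siglecf, Lrrc32, Hpgds, Pgm5, Mt4, Npr3, Wnt16, Nkd2 and Rasgrf1. They are 10 of the 46078 genes counted and of the 18515 that passed a filter on low counts, which all 10 did. The RNA came from interfollicular epidermis of female C57BL/6 mice aged 8 weeks, kept under 12 h of light and 12 h of darkness. RE animals, the epidermal rescue, carried Bmal1-stopFL and K14-Cre, so that the blocked Bmal1 allele can be reactivated where the keratin 14 promoter drives the recombinase. KO animals carried Bmal1-stopFL without the recombinase, and WT animals carried K14-Cre alone. K14-Cre acts in keratinocytes and is not directed at pigment or immune cells of an RE sample. Its reach in other cells and in the rest of the animal was not measured here. Each genotype had 24 libraries, 4 from separate animals at each of 6 time points, 72 in all.

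BMAL1, the protein of Arntl, pairs with CLOCK to switch on genes through short DNA elements called E-boxes, and it is needed for the daily clock of nearly all cells. In skin the clock times cell division and metabolism of keratinocytes. The 10 genes are not clock parts. They code for a Wnt ligand and a Wnt inhibitor, cell surface lectins and receptors, a prostaglandin enzyme, a metal-binding protein, a Ras activator and proteins of junctions and endosomes. Wnt ligands act on frizzled receptors and stabilise beta-catenin, and in epidermis they sustain basal cell renewal.

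Libraries held between 29551992 and 49461975 reads in genes. Levels are given as counts-per-million values (CPM) on library sizes scaled by TMM. Arntl averaged 72.7 ± 21.6 CPM in RE, 31.3 ± 2.98 CPM in KO and 75.2 ± 37.7 CPM in WT (SD, n = 24 each). The ratio of mt-Co1 to mt-Nd1 split the libraries into a set of 40, which holds the first 3 time points of every genotype and also the fourth of WT, and a set of 32, so values are also given for time points 1 to 3 and for time points 5 and 6 alone. A total of 5 libraries were in doubt. On a score of 50 other genes, which is 0 at WT and 1 at the other genotype, RE time point 3 replicate 2 stood at -0.13, KO time point 3 replicate 1 at 0.21 and WT time point 3 replicate 2 at 0.85 on the scale to RE. On the scale to KO this WT library stood at 0.13, within the -0.20 to 0.23 of WT libraries in no doubt. On the scale to RE, the libraries in no doubt overlapped, with WT up to 0.59 and RE down to 0.43. RE time point 5 replicate 3 and WT time point 5 replicate 4 held 343 and 274 CPM of the basal keratin Krt14, against 2514 to 6257 CPM in the other RE libraries and 3735 to 6048 CPM in the other WT libraries.

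The 10 genes were chosen by the difference between RE and WT, so that difference is a description and has no test here. In RE, Siglecf, Lrrc32, Nkd2, Mt4 and Nsg1 were higher than in WT, by log2 differences between 0.54 and 2.32 (0.292% of all genes tested were called higher). Hpgds, Pgm5, Rasgrf1, Npr3 and Wnt16 were lower, by between -0.45 and -1.02 (0.335% of all genes tested were called lower). All 10 were among the 116 genes called between RE and WT, which is 0.627% of the genes tested. Their choice by this difference fixed that outcome in advance. Without WT time point 5 replicate 4 alone 606 genes were called, and without all 5 libraries in doubt 660 were. Ranked by p, the 10 genes stood between the second (Nsg1) and place 108 (Wnt16), again as a description. Wnt16 and Npr3 lay near the threshold, and leaving out certain single libraries took them past it. The edgeR adjusted p of Wnt16 was 0.0823 without WT time point 4 replicate 2. That of Npr3 was 0.0605 without WT time point 6 replicate 1. Set against KO animals, the 10 genes did not share 1 pattern. Siglecf, Lrrc32, Nkd2, Hpgds, Pgm5 and Rasgrf1 also differed from WT in KO, and their RE minus KO difference did not pass the test. Mt4 lay between KO and WT. In Wnt16 KO was near WT and RE stood apart. The description as genes that the epidermal clock does not restore therefore does not hold for Wnt16. Nsg1 was higher in RE than in KO and narrowly missed the threshold between KO and WT (edgeR adjusted p = 0.0557). It passed there without the 5 libraries in doubt, so for Nsg1 the description is left unsettled. Npr3 passed neither between KO and WT nor between RE and KO.

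Between KO and WT, 7 of the 10 passed edgeR's quasi-likelihood test at an adjusted p under 0.05, or 6 of 9 without Siglecf, which passed the filter through RE and KO, against 19.8% of all genes tested. Of these, Siglecf, Lrrc32, Mt4 and Nkd2 were higher in KO, as were 8.72% of all genes, and Hpgds, Pgm5 and Rasgrf1 were lower, as were 11.1% of all genes. In RE against KO, 3 of the 10 passed, against 11.7% of all genes tested: Nsg1 was higher, as were 6.79% of all genes, and Mt4 and Wnt16 were lower, as were 4.86%. These comparisons share the RE or WT libraries with the one that chose the genes, so their counts are not independent of the choice. The median size of the log2 difference over the 10 was 0.69 between RE and WT, 0.56 between KO and WT and 0.11 between RE and KO, against 0.06, 0.10 and 0.08 over all genes tested.

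**Figure D1:**
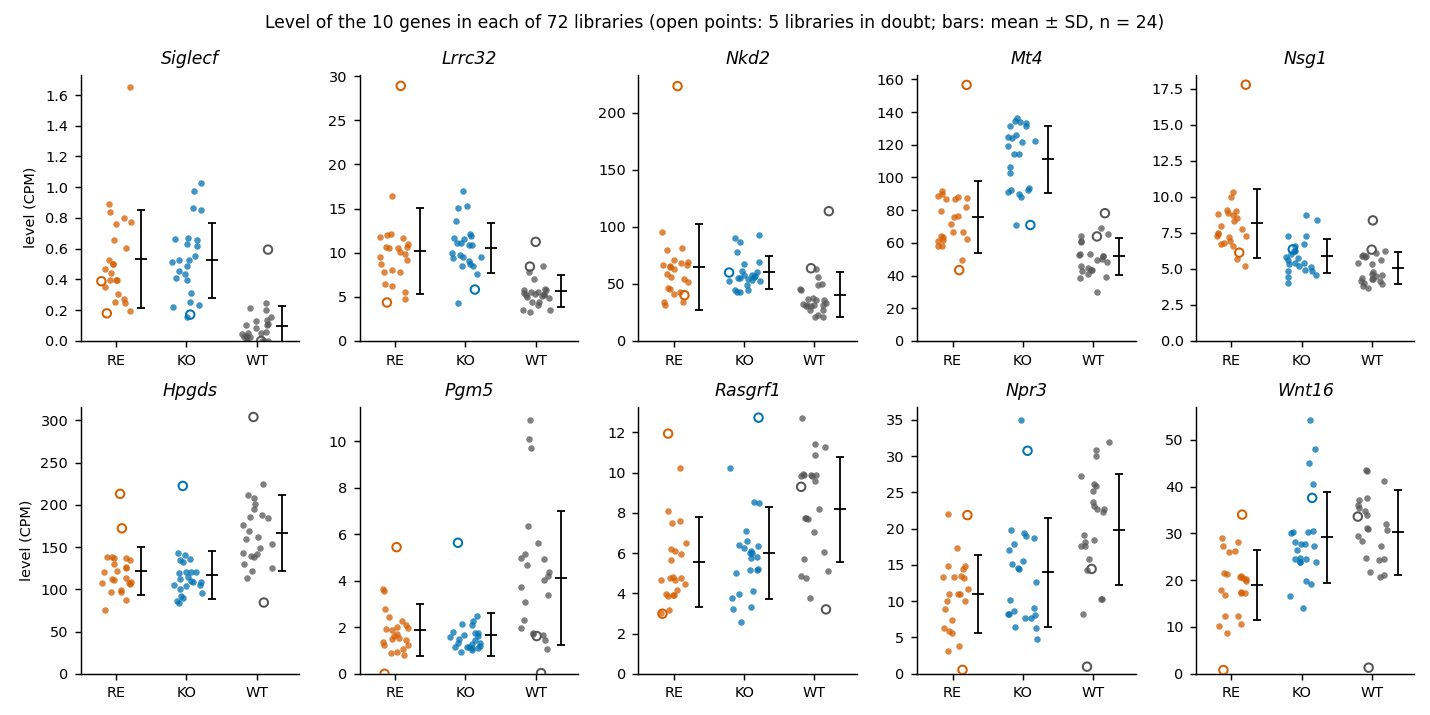
Level in CPM (y axis) of the 10 genes in each of the 24 RE, 24 KO and 24 WT libraries, with mean and SD beside the points. Open points are the 5 libraries in doubt. In Siglecf, RE and KO lie together above WT, whereas in Wnt16 KO and WT lie together above RE.

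**Figure D2:**
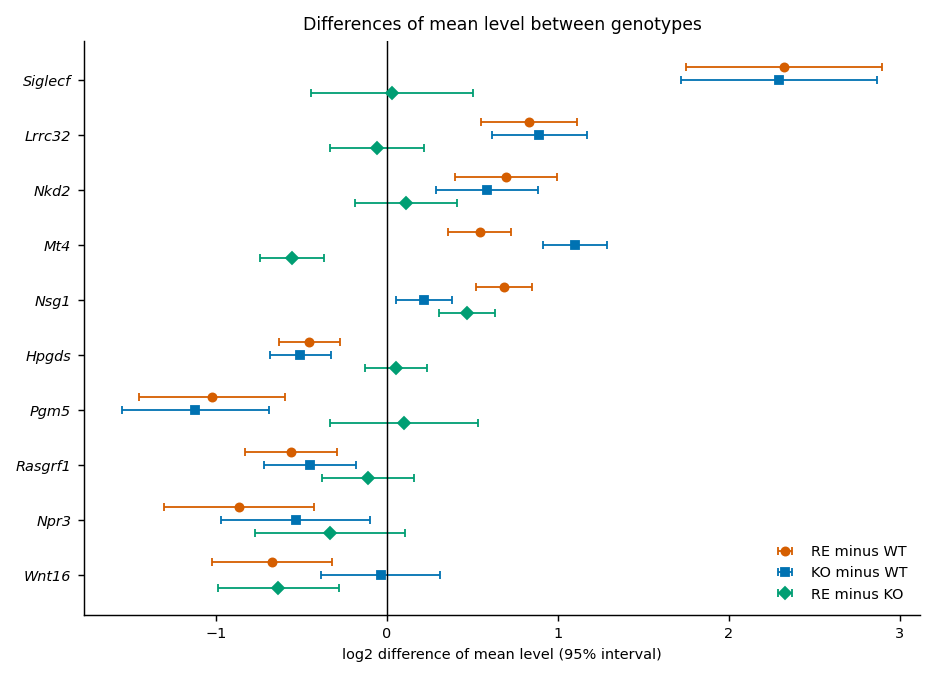
Log2 difference of mean level (x axis) of each gene between RE and WT, KO and WT, and RE and KO, with 95% intervals. For Siglecf, Lrrc32, Nkd2, Hpgds, Pgm5 and Rasgrf1 the RE minus WT and KO minus WT values lie close together and the RE minus KO interval holds 0.

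Wnt16 (chr6:22288227-22298522, plus strand; all coordinates are from GENCODE M21 on GRCm38), a secreted ligand of the Wnt family, was lower in RE than in KO. It ran between 0.791 and 34.0 CPM in RE (median 20.02), between 14.1 and 54.3 CPM in KO (median 27.6) and between 1.30 and 43.5 CPM in WT (median 31.0). Of the 24 RE libraries, 23 lay below the WT median and 21 below the KO median, while 19 of 24 KO libraries lay below the WT median. The mean in RE was below that in KO and below that in WT at all 6 time points. Wnt16 was lower in RE than in KO by a log2 difference of -0.64 ± 0.18 (SE, edgeR adjusted p = 0.00886), and between RE and WT the difference was -0.67 ± 0.18. Between KO and WT it was -0.04 ± 0.18 (adjusted p = 0.908), with a 95% interval of -0.39 to 0.31. Its RE minus KO difference was -0.38 at time points 1 to 3 and -1.11 at time points 5 and 6, with adjusted p of 0.154 and 0.259 in these smaller fits, and without the 5 libraries in doubt it was -0.59 over all time points (adjusted p = 0.000178).

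Nkd2 (chr13:73818534-73847631, minus strand), which binds Dishevelled and dampens Wnt signalling, was higher in KO than in WT. It held between 31.7 and 223 CPM in RE (median 61.1), between 42.6 and 93.0 CPM in KO (median 56.3) and between 20.6 and 114 CPM in WT (median 34.8). All 24 KO libraries and 21 of 24 RE libraries lay above the WT median. The highest RE and the highest WT value both came from the libraries with little Krt14, and without the 5 libraries in doubt the highest were 95.2 CPM in RE and 63.1 CPM in WT. Nkd2 was higher in KO than in WT by a log2 difference of 0.59 ± 0.15 (edgeR adjusted p = 0.00285), and the RE minus WT difference was 0.70 ± 0.15. For RE against KO the value was 0.11 ± 0.15 (adjusted p = 0.719), with a 95% interval of -0.19 to 0.41. At time points 5 and 6 alone the KO minus WT difference was 0.47 (adjusted p = 0.555), and 0.81 there without the libraries in doubt (adjusted p = 0.000722).

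Siglecf (chr7:43351341-43359531, plus strand), a sialic acid-binding lectin known in mice from eosinophils and alveolar macrophages, had the largest difference of the 10 and the lowest level. It ran between 0.180 and 1.65 CPM in RE (median 0.455), between 0.154 and 1.03 CPM in KO (median 0.520) and between 0 and 0.594 CPM in WT (median 0.0550). All 24 RE and all 24 KO libraries lay above the WT median. These levels rest on 5 to 50 reads in an RE library, 5 to 48 in a KO library and 0 to 22 in a WT library, with 0 reads in 5 WT libraries, so counting error is large. Siglecf reached 10 reads in 21 RE, 20 KO and 1 WT libraries, so it passed the filter through RE and KO. Siglecf was higher in KO than in WT by a log2 difference of 2.29 ± 0.29 (edgeR adjusted p = 6.07e-09, and 5.94e-09 with no filter on low counts), close to the 2.32 ± 0.29 between RE and WT. Between RE and KO the difference was 0.03 ± 0.24 (adjusted p = 0.960), with a 95% interval of -0.44 to 0.51. The highest WT value was from WT time point 3 replicate 2, one of the libraries in doubt, and the other WT libraries reached at most 0.244 CPM.

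Lrrc32 (chr7:98489283-98502181, plus strand) codes for GARP, a membrane protein that holds latent TGF-beta on regulatory T cells, platelets and endothelium. It ran between 4.36 and 28.9 CPM in RE (median 9.92), between 4.29 and 17.0 CPM in KO (median 10.4) and between 3.29 and 11.2 CPM in WT (median 5.33). Of the RE libraries 22 of 24, and of the KO libraries 23 of 24, lay above the WT median. Lrrc32 was higher in KO than in WT by a log2 difference of 0.89 ± 0.14 (edgeR adjusted p = 1.53e-06), beside 0.83 ± 0.14 between RE and WT. Its RE minus KO difference was -0.06 ± 0.14 (adjusted p = 0.849), with a 95% interval of -0.33 to 0.21. At time points 5 and 6 alone the KO minus WT difference was 0.85 (adjusted p = 0.116), and 1.04 there without the libraries in doubt (adjusted p = 0.00195).

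Npr3 (chr15:11839896-11907287, minus strand) is the receptor that clears natriuretic peptides. It ran between 0.539 and 22.0 CPM in RE (median 11.01), between 4.73 and 35.0 CPM in KO (median 13.6) and between 0.978 and 32.0 CPM in WT (median 20.7). In both RE and KO, 22 of 24 libraries lay below the WT median, and the groups overlapped. The RE minus WT difference was -0.87 ± 0.22, and the KO minus WT difference of -0.53 ± 0.22 missed the threshold (edgeR adjusted p = 0.0735). It was -0.71 (adjusted p = 0.000926) without the 5 libraries in doubt, -0.81 at time points 1 to 3 (adjusted p = 0.0114) and -0.14 at time points 5 and 6 (adjusted p = 0.937). For RE against KO the value was -0.34 ± 0.22 (adjusted p = 0.373), with a 95% interval of -0.77 to 0.10.

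Hpgds (chr6:65117293-65144908, minus strand), the enzyme that makes prostaglandin D2 in blood-derived cells, held between 75.4 and 213 CPM in RE (median 118), between 84.2 and 222 CPM in KO (median 111) and between 84.4 and 304 CPM in WT (median 161). Of the RE libraries 22 of 24, and of the KO libraries 23 of 24, lay below the WT median. The highest RE and KO values were those of RE and KO libraries in doubt, and without these the levels reached 139 CPM in RE and 143 CPM in KO. Hpgds was lower in KO than in WT by a log2 difference of -0.51 ± 0.09 (edgeR adjusted p = 1.85e-05), beside -0.45 ± 0.09 between RE and WT. Between RE and KO the difference was 0.05 ± 0.09 (adjusted p = 0.786), with a 95% interval of -0.13 to 0.23. At time points 1 to 3 alone the KO minus WT difference was -0.26 (adjusted p = 0.186), and -0.43 there without the libraries in doubt (adjusted p = 0.00264).

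Mt4 (chr8:94137197-94139031, plus strand), a metallothionein of stratified squamous epithelia that binds zinc and copper, lay between KO and WT in RE. It ran between 43.3 and 157 CPM in RE (median 73.5), between 70.9 and 136 CPM in KO (median 117) and between 29.7 and 78.1 CPM in WT (median 50.8). Of the 24 KO libraries, 22 lay above the highest WT library, and at all 6 time points the RE mean lay below the KO mean and above the WT mean. Without the 5 libraries in doubt every KO library lay above the highest WT library, and 12 of 22 RE libraries did. Mt4 was higher in KO than in WT by a log2 difference of 1.0997 ± 0.09 (edgeR adjusted p = 8.13e-15) and lower in RE than in KO by -0.56 ± 0.09 (adjusted p = 6.63e-06). The difference left between RE and WT, 0.54 ± 0.09, was 49.4% of that between KO and WT. At time points 5 and 6 alone the RE minus KO difference was -0.48 (adjusted p = 0.199), and -0.67 there without the libraries in doubt (adjusted p = 0.00304).

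Pgm5 (chr19:24683016-24861855, minus strand), a phosphoglucomutase relative without that enzyme activity that is known from adherens junctions of muscle, was low throughout. It ran between 0 and 5.44 CPM in RE (median 1.67), between 0.945 and 5.63 CPM in KO (median 1.46) and between 0.0296 and 10.9 CPM in WT (median 3.89). Of the RE and the KO libraries, 23 of 24 each lay below the WT median. Pgm5 was lower in KO than in WT by a log2 difference of -1.12 ± 0.22 (edgeR adjusted p = 6.92e-05), beside -1.02 ± 0.21 between RE and WT. Its RE minus KO difference was 0.10 ± 0.22 (adjusted p = 0.843), with a 95% interval of -0.34 to 0.53. Between KO and WT the difference was -1.61 at time points 1 to 3 and -0.03 at time points 5 and 6 (adjusted p = 0.984), and between RE and WT it was -1.36 and -0.32. Time points 1 to 3 and time points 5 and 6 belong to different sets of libraries, so time of day and set cannot be told apart.

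Rasgrf1 (chr9:89909908-90026977, plus strand), an exchange factor that activates Ras and is best known from neurons, ran between 2.98 and 11.9 CPM in RE (median 4.75), between 2.59 and 12.7 CPM in KO (median 5.89) and between 3.20 and 12.7 CPM in WT (median 8.73). In both RE and KO, 22 of 24 libraries lay below the WT median. Rasgrf1 was lower in KO than in WT by a log2 difference of -0.45 ± 0.13 (edgeR adjusted p = 0.0108), beside -0.56 ± 0.13 between RE and WT. For RE against KO the value was -0.11 ± 0.13 (adjusted p = 0.688), with a 95% interval of -0.38 to 0.16. Within the sets the KO minus WT difference was -0.39 at time points 1 to 3 (adjusted p = 0.146) and -0.37 at time points 5 and 6 (adjusted p = 0.456). It was -0.41 (adjusted p = 0.0813) without replicate 2 of every group and -0.38 (adjusted p = 0.119) without replicate 3.

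Nsg1 (chr5:38137192-38159907, minus strand), a protein of endosomes first known from neurons, was highest in RE. It ran between 5.17 and 17.8 CPM in RE (median 7.64), between 4.00 and 8.77 CPM in KO (median 5.72) and between 3.71 and 8.37 CPM in WT (median 4.73). All 24 RE libraries lay above the WT median and 22 above the KO median, and at 5 of 6 time points every RE library exceeded every WT library. Nsg1 was higher in RE than in KO by a log2 difference of 0.47 ± 0.08 (edgeR adjusted p = 2.18e-05), and the RE minus WT difference was 0.68 ± 0.08. The KO minus WT difference of 0.22 ± 0.08 missed the threshold (adjusted p = 0.0557) and passed it without the 5 libraries in doubt, where it was 0.26 (adjusted p = 0.00271). Between RE and KO the difference was 0.32 at time points 1 to 3 (adjusted p = 0.121) and 0.73 at time points 5 and 6 (adjusted p = 0.0198). Nsg1 overlaps Stx18, which is annotated on the other strand, and since the strand setting of the counting is not given, reads of the 2 genes may not have been told apart. The same holds for Hpgds, Npr3, Nkd2 and Pgm5, each of which overlaps a gene model annotated on the other strand, and Pgm5 also overlaps one on its own strand.

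Compared per kilobase of exon, the mean WT levels stood in the order Mt4 (130 CPM per kb), Hpgds (26.0), Nkd2 (8.40), Wnt16 (6.93), Npr3 (2.12), Nsg1 (1.59), Lrrc32 (1.21), Pgm5 (1.14), Rasgrf1 (0.74) and Siglecf (0.0359). In RE the level was 190 CPM per kb for Mt4, 18.9 for Hpgds, 13.4 for Nkd2 and 4.37 for Wnt16. Siglecf, at 0.191 CPM per kb in RE, stayed below every other member. Siglecf and Lrrc32 lie on the chromosome of Arntl, at distances of 69.8 and 14.7 Mb from it. Of the genes tested on chromosome 7, 0.698% were called between RE and WT, against 0.621% on the other chromosomes.

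The region before the start site was read for 8 of the 10 genes from RefSeq (GRCm38.p6); the table had no entry for Nsg1 and Lrrc32. Both strands of the 250 bases before each start were searched for the E-box with the letters CACGTG and for a variant of it with the letters CACGTT. The D-box was searched as TTANGTAA, and the half-site that REV-ERB and ROR receptors bind as AGGTCA. For the metal response element the core was searched with the letters TGCACNC and, as a second form of it, with TGCGCNC. None of the 8 held either E-box form or the D-box, which occurred in 6.02%, 3.85% and 2.06% of the 32851 promoters in the table. The metal response core, held by 21.4% of all promoters, was in Mt4 at 91 bases and in Pgm5 at 49 bases before the start, and AGGTCA, held by 14.02%, was in Wnt16 at 237 bases. These are matches of letters and not sites shown to be bound. The 3 regions with a match are shown because they belong to the gene at a middle level in RE, the gene with the strongest daily change in WT and the gene lowered in RE beyond KO, with the match in capitals (in Mt4 chr8:94136954-94137203, in Pgm5 chr19:24861843-24862092 and in Wnt16 chr6:22287977-22288226, each 5′ to 3′ on the strand of the gene).
Mt4: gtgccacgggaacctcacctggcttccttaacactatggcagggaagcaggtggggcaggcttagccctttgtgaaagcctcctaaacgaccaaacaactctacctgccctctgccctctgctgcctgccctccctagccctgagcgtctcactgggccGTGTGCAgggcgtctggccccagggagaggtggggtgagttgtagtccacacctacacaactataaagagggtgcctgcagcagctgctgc
Pgm5: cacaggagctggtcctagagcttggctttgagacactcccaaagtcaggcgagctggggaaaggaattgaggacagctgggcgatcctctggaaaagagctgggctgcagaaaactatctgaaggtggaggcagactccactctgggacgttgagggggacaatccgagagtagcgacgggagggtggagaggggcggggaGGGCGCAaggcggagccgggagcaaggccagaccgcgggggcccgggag
Wnt16: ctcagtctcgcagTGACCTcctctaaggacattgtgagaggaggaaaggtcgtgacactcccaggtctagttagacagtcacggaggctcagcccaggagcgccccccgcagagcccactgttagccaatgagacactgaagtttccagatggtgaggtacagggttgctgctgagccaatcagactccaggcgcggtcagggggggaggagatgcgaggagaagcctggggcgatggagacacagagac

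Since Siglecf, Lrrc32 and Hpgds are known from blood-derived cells, markers of such cells were set beside them. In bulk RNA, fewer cells of a type and less RNA per cell cannot be told apart. Of the 7 other eosinophil markers, Epx, Ear6, Ccr3 and Il5ra were under 0.1 CPM on average in every genotype. Only 1 of the 7 passed the filter, and it was called in neither comparison with WT. Its log2 difference was -0.21 in RE minus WT and -0.55 in KO minus WT, opposite in sign to Siglecf. The eosinophil list summed to between 0.211 and 3.78 CPM in RE, 0.221 and 2.67 CPM in KO and 0.386 and 8.38 CPM in WT. Of the macrophage markers 0 of 8 were called between RE and WT, 2 were lower in KO than in WT and 5 were higher in RE than in KO (3 without the 5 libraries in doubt), and the list summed to between 16.0 and 56.6 CPM in RE, 10.3 and 39.1 CPM in KO and 16.7 and 37.5 CPM in WT. Beside Lrrc32, 0 of 8 other regulatory T cell markers were called between RE and WT and 1 fell in KO. For Hpgds, the mast cell marker Tpsab1 was at 0 in all libraries and Fcer1a and Ms4a2 were under 0.1 CPM. Of the 10 mast cell markers 2 passed the filter. Of these, 0 were called between RE and WT and 1 fell in KO (also 1 without the 5 libraries in doubt). Their median log2 difference between KO and WT was -0.46. This list summed to between 0.530 and 3.96 CPM in RE, 0.438 and 3.57 CPM in KO and 0.978 and 10.2 CPM in WT. Between RE and WT no gene of these lists other than the members passed edgeR's test over all 72 libraries, while without the 5 libraries in doubt 2 of 8 regulatory T cell markers were lower and 1 of 8 macrophage markers was higher in RE. Beside Hpgds, 0 of 6 other markers of type 2 innate lymphoid cells were called between RE and WT and 2 fell in KO. That list, of which Hpgds is a member, summed to between 804 and 1196 CPM in RE. In KO it summed to between 791 and 961 CPM and in WT to between 763 and 1110 CPM. Which cells this RNA came from was not tested. The part of these cells in the levels of the 3 genes was not tested.

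Keratin levels were set beside Mt4, a gene of upper epidermal layers. Outside the libraries with little Krt14, Krt1, a keratin of the spinous layer, had a median of 4821 CPM in RE. It had 4884 CPM in KO and 3646 CPM in WT. For Krt10, also a marker of these layers, the medians were 12465, 15419 and 11499 CPM in RE, KO and WT. Krt1 in RE was thus near KO, unlike Mt4, which lay between KO and WT in RE. Of 11 spinous and granular markers 1 was called between RE and WT, and 5 rose and 1 fell in KO, while 0 of 8 basal markers were called in either. Without the 5 libraries in doubt, 6 of the 11 were higher in RE than in WT, 8 rose and 1 fell in KO, and of the 8 basal markers 1 was lower in RE and 4 were lower in KO than in WT. The summed spinous and granular list had a median of 20854 CPM in RE, 24832 CPM in KO and 18776 CPM in WT. The hair shaft and inner root sheath list, 9 of whose 9 markers fell in KO, summed to between 11.3 and 62.7 CPM in RE, 10.3 and 23.3 CPM in KO and 11.2 and 62.0 CPM in WT. Of 8 melanocyte markers 5 fell in KO (median log2 difference over the list -1.03), and of 9 sebaceous gland markers 5 fell in KO (median -0.48), with 0 of either list called between RE and WT. Of 9 dermal fibroblast markers 2 were called higher in RE than in WT. The part of these shifts in the levels of the 10 genes was not tested.

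In the 2 libraries with little Krt14, several of the 10 genes stood outside the range of their genotype. RE time point 5 replicate 3 and WT time point 5 replicate 4 held 560 and 694 CPM of Krt5, against 5848 to 10885 CPM in the other RE libraries and 7580 to 10207 CPM in the other WT libraries. In them Krt10, of the layers above, stood at 35606 and 33319 CPM, against at most 16706 CPM in other RE and 14619 CPM in other WT libraries. Wnt16 was at 0.791 and 1.30 CPM, Npr3 at 0.539 and 0.978 CPM and Pgm5 at 0 and 0.0296 CPM. These values lay below those of all other libraries of their genotype. Nkd2 stood at 223 and 114 CPM and Lrrc32 at 28.9 and 11.2 CPM, above all other libraries of their genotype. Mt4 reached 157 CPM in the RE library and 63.9 CPM in the WT library.

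In the 3 libraries whose score goes against the label, which was computed without the 10 genes, several members were also at the level of another genotype. WT time point 3 replicate 2 held 78.1 CPM of Mt4, 8.37 CPM of Nsg1 and 0.594 CPM of Siglecf, each above all other WT libraries in no doubt, and 84.4 CPM of Hpgds, below all of them. RE time point 3 replicate 2 held 213 CPM of Hpgds and 5.44 CPM of Pgm5, above the other RE libraries, and 43.3 CPM of Mt4, below them. KO time point 3 replicate 1 held 222 CPM of Hpgds and 5.63 CPM of Pgm5, above the other KO libraries, and 70.9 CPM of Mt4, below them. Without all 5 libraries in doubt, 9 of the 10 genes passed between KO and WT, with Npr3 and Nsg1 added and Wnt16 left out. In that fit 28.7% of all genes tested passed, against 19.8% with all libraries. Between RE and KO 3 of the 10 passed, where 17.7% of all genes did, against 11.7% with all libraries.

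**Figure D3:**
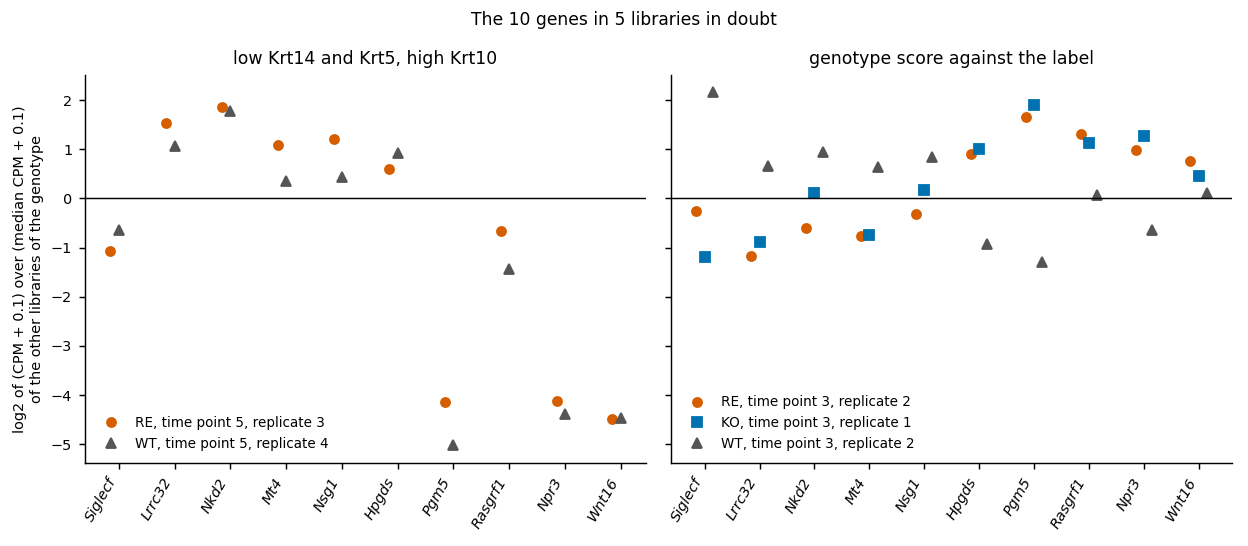
Level of the 10 genes in the 5 libraries in doubt, as log2 of CPM plus 0.1 over the median of the libraries of the same genotype in no doubt plus 0.1 (y axis). Left, the libraries with little Krt14, in which Pgm5, Npr3 and Wnt16 lie at -4.12 or below; right, the libraries whose genotype score goes against the label, in which Pgm5 lies at 1.65 in RE and 1.90 in KO and at -1.29 in WT.

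Daily change was tested by fitting a cosine with a period of 6 time points to each genotype. In WT, 2 of the 10 genes passed edgeR's test, against 33.3% of all genes tested. Pgm5 had a fitted log2 range of 2.20 in WT with a peak at time point 2.55 (edgeR adjusted p = 0.000363). Over the 6 time points in order, its 4 WT libraries spanned 1.75 to 6.33, 4.03 to 10.1, 1.62 to 10.9, 4.39 to 5.605, 0.0296 to 2.31 and 1.67 to 3.07 CPM. Group means were highest in the first 4 time points, which are also those of the set of 40 libraries, and with the set as a term the test gave an adjusted p of 0.206, which became 0.00318 when the 5 libraries in doubt were also left out. Nsg1 had a range of 0.56 in WT with a peak at time point 4.17 (edgeR adjusted p = 0.0250), a call that was lost without replicate 2 (adjusted p = 0.104), without replicate 4 (0.133) and with group means in place of the cosine (0.120).

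In RE, Pgm5 was the only gene of the 10 to pass, against 12.7% of all genes tested, with a log2 range of 1.39 and a peak at time point 2.95 (edgeR adjusted p = 0.0437). The call was lost when any 1 of 12 RE libraries was left out, with an adjusted p of 0.156 without RE time point 3 replicate 2. In KO, 0 of the 10 passed edgeR's test, against 7.26% of all genes tested; 1 had an unadjusted p under 0.05 (Rasgrf1) and DESeq2 called 0. In KO the log2 range of Pgm5 was 0.66 (adjusted p = 0.681). No difference in daily change passed for any of the 10 with edgeR, either between RE and WT (0.0108% of all genes tested, 0 of the 10 at an unadjusted p under 0.05, 0 by DESeq2) or between KO and WT (1.17% of all genes tested, 1 of the 10 at an unadjusted p under 0.05, 0 by DESeq2). The 1 was Pgm5 between KO and WT (adjusted p = 0.255), which passed without the 5 libraries in doubt (adjusted p = 0.00132).

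**Figure D4:**
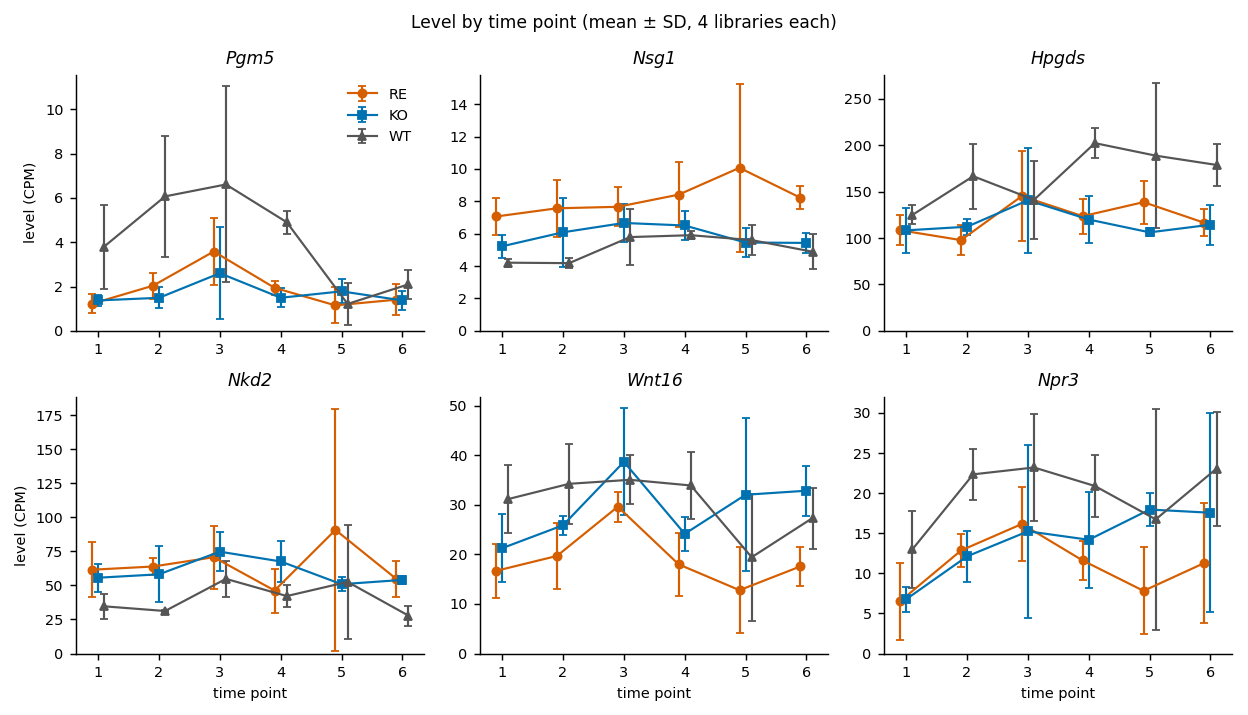
Level in CPM (y axis) by time point (x axis) of 6 of the genes in RE, KO and WT, as mean and SD of 4 libraries. Pgm5 in WT had a mean of 6.61 CPM for time point 3 and 1.21 CPM for time point 5, while Wnt16 in RE lay below KO and WT at every time point; the wide bars at time point 5 hold the libraries with little Krt14.

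The other genes of the same pathways were set beside the 10. Over 12 pathway lists, 182 genes other than the members passed the filter. Between RE and WT, 0 of the 182 passed edgeR's test, 20 had an unadjusted p under 0.05 (10.99%, against 11.5% of all genes) and DESeq2 called 1. Without the 5 libraries in doubt 5 of the 182 passed (2.75%, against 3.56% of all genes tested): Lgr6, Pde5a, Rras and Pgm1 were lower and Grip1 was higher in RE, and they are named after their values were seen. Between KO and WT, 24 were called higher and 25 lower, together 26.9% of the 182, beside the 19.8% of all genes. Between RE and KO, 14 were called higher and 32 lower, together 25.3% of the 182, beside the 11.7% of all genes (6.79% higher and 4.86% lower). The median size of their log2 difference was 0.08 between RE and WT, 0.14 between KO and WT and 0.15 between RE and KO.

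Among the 15 other Wnt ligands tested, 4 were higher and 1 lower in KO than in WT. Wnt10b averaged 13.9 ± 4.69 CPM in RE, 21.9 ± 5.86 CPM in KO and 13.8 ± 3.85 CPM in WT, a KO minus WT log2 difference of 0.67 (edgeR adjusted p = 0.000152). Wnt5a averaged 19.5 ± 4.45 CPM in RE, 31.3 ± 6.99 CPM in KO and 21.8 ± 5.94 CPM in WT, a difference of 0.52 (adjusted p = 0.000197). Both were thus near the WT mean in RE, unlike Wnt16, which was below both. Of the 19 receptors 3 rose and 3 fell in KO, with Fzd10 at 0.32, Fzd6 at 0.19 and Fzd3 at 0.26, and of the 16 other inhibitors 2 rose and 3 fell, with the BMP and Wnt antagonist Sostdc1 at 0.49, Apcdd1 at 0.30 and Wif1 at -1.39. In RE minus WT, Sostdc1 stood at -0.03, Apcdd1 at -0.07 and Nkd1, the paralog of Nkd2, at -0.45, beside 0.70 for Nkd2. Of 12 target and effector genes 2 rose and 2 fell in KO, with Tcf7l1 at 0.52, Ctnnb1 at -0.08 and Nkd1 at -0.73.

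In the lists of the other members the counts are again of genes called between KO and WT, beside the 19.8% of all genes. Of 21 prostaglandin genes beside Hpgds, 3 rose and 2 fell in KO, and Ptgds, the other prostaglandin D synthase, fell by 0.96 on the log2 scale at 0.275 ± 0.131 CPM in KO and 0.610 ± 0.709 CPM in WT. Of 23 metallothionein and zinc transporter genes beside Mt4, 2 rose and 3 fell in KO, with the zinc importer Slc39a2 at 0.64 and the zinc exporter Slc30a2 at -0.36. Beside Npr3, 0 of 8 genes of natriuretic peptides rose and 2 fell in KO: the receptor Npr1 at -0.50 and Mme, a peptidase that degrades such peptides, at -1.04. Beside Lrrc32, 3 of 25 TGF-beta genes rose and 4 fell, with the latent TGF-beta binding gene Ltbp2 at 0.85 and the ligand Tgfb3 at -0.60. The 4 other Siglec genes tested gave 0 calls in KO minus WT. Of 11 Ras genes beside Rasgrf1 2 rose and 2 fell, with the small GTPase Rras2 at 0.37, and of 22 genes beside Pgm5 1 rose and 2 fell, with dystrophin (Dmd) at -0.34. Of 8 genes beside Nsg1 2 rose and 2 fell, with Grip2, an adaptor of glutamate receptors, at -1.07.

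**Figure D5:**
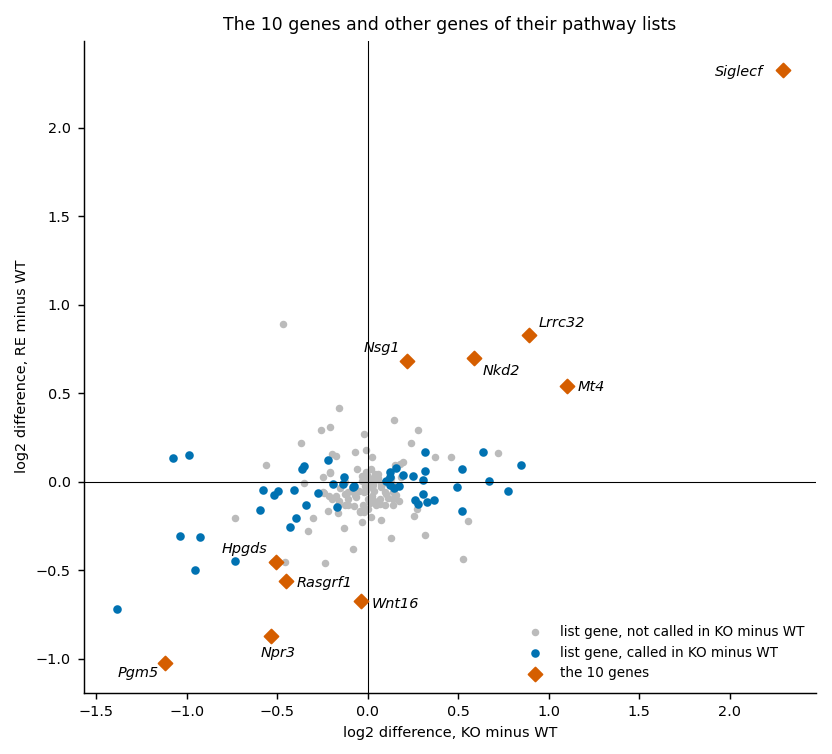
Log2 difference between KO and WT (x axis) and between RE and WT (y axis) of the 10 genes (diamonds) and of 182 other genes of their pathway lists (dots, blue where called between KO and WT). The axes share the WT libraries, and the 10 genes were chosen for their place on the y axis; list genes called between KO and WT lie between -0.72 and 0.17 on it.

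The genes most like each member were taken over the 18 group means (3 genotypes at 6 time points, log2 of CPM plus 0.5) among 12106 protein-coding genes with at least 1 CPM. Group means share libraries and genotype differences, so these values are descriptions. Mt4 was most like Ammecr1 (r = 0.94) and Car13 (r = 0.94), and Krt1 stood second for both Lrrc32 (r = 0.89, after Trank1 at 0.89) and Siglecf (r = 0.84, after Serpinb13 at 0.85). Within the groups, over the 72 libraries, Krt1 had r = 0.71 with Lrrc32 and r = -0.32 with Siglecf, and Serpinb13 had r = -0.04 with Siglecf, so for Siglecf the likeness over group means was not there within groups. Wnt16 was most like Rras and Cped1 (r = 0.90 and 0.88), Npr3 like Cdh4 and Adamts14 (0.89 and 0.89) and Pgm5 like Ephx1 and Taf10 (0.89 and 0.87). The values for Hpgds (Npy1r and Gabrp), Nsg1 (Kazald1 and Cbwd1), Nkd2 (Psmb1 and Bcl2l14) and Rasgrf1 (Abca4 and Fam180a) were between 0.81 and 0.86. Within groups, Taf10 had r = 0.02 with Pgm5, Npy1r 0.27 with Hpgds and Cbwd1 0.29 with Nsg1. Apart from these and the pairs of Siglecf, the within-group values lay between 0.42 and 0.83.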

How the data were processed

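RNA-seq read counts per gene of 72 libraries of mouse interfollicular epidermis were used as the authors deposited them. Per the submitters' processing notes, Trimmomatic, TopHat2 2.1.1, HTSeq and the builds mm10 and GRCm38 were used; the strand setting is not given in the sources used here. Rows that name no gene (12.8 to 20.0% of reads without a feature, 1.16 to 2.60% ambiguous) stayed out of library sizes. Libraries held 29551992 to 49461975 reads in genes, and the p-values measure the spread between mice. Genes were kept by filterByExpr over the 18 groups, scaled by TMM and fitted with edgeR 4.0.16 in R 4.3.3 (quasi-likelihood F-test) to a mean plus cosine and sine terms for each genotype, whose period was 6 time points. P-values were adjusted by Benjamini-Hochberg over all 18515 genes, with a threshold of 0.05. The procedure was tested on simulated data.

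Alternatives were DESeq2 1.42.0, RLE scaling, no filter, the replicate number as a block, the library set as a term, group means, parts of the time points, only the genotypes compared, and leaving out libraries. Counts within time point ranges without the 5 libraries in doubt, and counts of list genes without them, were chosen after seeing the data. The genes named by rule are the 10 members, up to 3 called genes of smallest p per pathway list and comparison, the 2 genes most like each member, and Arntl. The keratins Krt5, Krt10 and Krt14 and the eosinophil and mast cell markers were named outside these rules. The eosinophil and mast cell markers named are those with levels under 0.1 CPM. The members and lists were chosen with earlier results of these data known. Names came from GENCODE M21, which matched 45229 of 46078 genes. Promoters are from RefSeq. Figures were drawn with matplotlib 3.10.9.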

Additional observations from a re-analysis of the deposited data

Results flagged for a closer look

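Of 180 groups of 4 libraries (10 genes, 3 genotypes, 6 time points), 8 held 1 library far from the other 3 by Dixon's criterion, and chance alone gives about 1 in 20 groups. All 8 were high values, and 4 came from libraries in doubt. Among the libraries in doubt, RE time point 5 replicate 3 held 17.8 CPM of Nsg1, where the other 3 held 6.92 to 8.34 CPM, and 223 CPM of Nkd2, where the others held 42.6 to 51.6 CPM. WT time point 5 replicate 4 held 11.2 CPM of Lrrc32, where the others held 4.38 to 5.04 CPM, and WT time point 3 replicate 2 held 78.1 CPM of Mt4, where the others held 38.5 to 43.7 CPM.

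The other 4 came from KO libraries in no doubt. Replicate 3 of time point 4 held 124 CPM of Mt4, where the others held 87.8 to 93.3 CPM, and 90.4 CPM of Nkd2, where the others held 57.8 to 61.7 CPM. Replicate 2 of time point 2 held 17.0 CPM of Lrrc32, where the others held 7.60 to 9.11 CPM. Replicate 4 of time point 6 held 40.5 CPM of Wnt16, where the others held 30.03 to 30.6 CPM. The causes were not tested.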

How the results depend on the processing

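Results were compared by direction and side of the threshold. Those between RE and WT were compared by direction and a shift under 1 SD within groups. By these criteria 1061 of 1139 results stayed the same over the alternatives other than leaving out 1 library, and 5719 of 5760 over leave-one-out. These counts thus leave out the threshold between RE and WT, where Wnt16 and Npr3 lost their call when certain single libraries were left out. The number of the 10 genes passing between KO and WT, 7, was 3 with time points 5 and 6 only. Of all 18515 genes tested, 3667 passed in the main fit and 574 with time points 5 and 6 only. Between RE and KO, 3 became 1 with time points 1 to 3 only, with or without the 5 libraries in doubt, and 1 with time points 5 and 6 only. There the calls over all genes fell from 2157 to 881 (936 without the 5 libraries) and to 314. For daily change in RE, 1 became 0 with no filter, with the set as a term (also without the 5 libraries) and with only the genotypes compared, and ranged from 0 to 1 over leaving out replicates or libraries. Among all genes, 2352 calls became 2282 with no filter, 383 with the set as a term (853 without the 5 libraries) and 1572 with only the genotypes compared. In WT, 2 became 4 without the 5 libraries and 1 with the set as a term, and ranged from 1 to 3 over leaving out replicates. The 6166 calls over all genes became 6433 and 4638, and 3306 to 4847 over leaving out replicates. With group means 3 passed in WT (Pgm5, Hpgds and Siglecf, without Nsg1), and the 1 that passed in RE was Rasgrf1 (edgeR adjusted p = 0.0451) in place of Pgm5 (adjusted p = 0.0862). Group means called 7951 of all genes in WT and 3270 in RE. In KO, 0 became 1 with group means, and for the difference between KO and WT 0 became 1 without the 5 libraries, with or without the set as a term. Over all genes, 1345 became 1659 in KO with group means. For the difference, 217 became 860 without the 5 libraries and 957 with the set as a term as well. With the replicate block the counts were 7 between KO and WT, 3 between RE and KO, and 1, 0 and 2 for daily change in RE, KO and WT. In the same order, 3706, 2172, 2309, 1319 and 6160 of all genes passed. The criterion for pairing, that every correlation of same-numbered libraries be over 0.1, was not met, and the labels tie the numbers to no batch: correlations of same-numbered libraries went down to -0.74 (RE and WT), -0.25 (KO and WT) and -0.19 (RE and KO), with 16, 10 and 10 of 24 over 0.1 and 13, 11 and 8 of 24 libraries most like their own number, where unrelated numbers would give 6, a hint of pairing from the data and not from the design.

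Signs turned only in differences that did not pass. Wnt16 between KO and WT was 0.0136 with the set as a term, 0.50 with time points 5 and 6 only (0.29 there without the 5 libraries), and -0.213 to 0.0456 over leaving out replicates. Between RE and KO with time points 1 to 3 only, Siglecf was -0.0237, Hpgds -0.0505 and Npr3 0.0396, and without the 5 libraries -0.107, -0.0235 and 0.182. With time points 5 and 6 only, Lrrc32 was 0.33 and Pgm5 -0.28, and without the 5 libraries 0.0489 and -0.0885. Nkd2 was -0.0602 without the 5 libraries, -0.0601 also with the set as a term and -0.0573 at time points 5 and 6. Over leaving out replicates or libraries, the RE minus KO difference ranged from -0.0733 to 0.0724 for Siglecf, -0.177 to 0.0399 for Lrrc32, -0.00784 to 0.103 for Hpgds and -0.0755 to 0.256 for Nkd2. The causes were not tested.

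Calls over all genes between RE and WT ranged from 4 (time points 5 and 6 only) to 660 (without the 5 libraries) around 116, and with DESeq2 were 194. Between KO and WT they ranged from 574 to 5311 around 3667, and between RE and KO from 314 to 3497 around 2157. Daily change gave 383 to 3270 calls around 2352 in RE, 380 to 1899 around 1345 in KO and 3306 to 7951 around 6166 in WT. Its difference gave 0 to 91 around 2 between RE and WT, and 32 to 957 around 217 between KO and WT. Smaller fits hold fewer libraries. Low counts limit Siglecf most.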
